A study of Mus musculus with 34 samples.

Results

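The loss of the retinoblastoma gene Rb1 was examined in mouse fetal liver that also lacked p130 but still carried p107. Its arrays were chosen by title, 9 labelled Rb1;p130 DKO (double knockout) and 3 labelled p130 KO, which made 12 of the 34 arrays of the series. Both groups lacked p130, so that the loss of Rb1 was the labelled difference between them. Each array held RNA of whole, unsorted liver, labelled embryonic day 14.5, while the series design gave days 13.5 to 14.5. The other arrays covered Rb1;p107;p130 TKO (triple knockout, 6 arrays), p107;p130 DKO (6), Rb1;p107 DKO (5), Rb1 KO (2), p107 KO (1) and wild type (2). The sources used here did not give the targeted alleles, any Cre driver or the strain. They also did not say whether each array was a separate fetus, so p-values speak of the variation among these arrays alone, which may be technical.

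Rb1 and its relatives p107 (gene Rbl1) and p130 (gene Rbl2) are the pocket proteins. They bind E2F transcription factors and bring in chromatin repressors, and this holds genes for DNA replication and cell division in check as cells leave the cycle. In mid-gestation the fetal liver is the main site of red cell formation: erythroid precursors divide under erythropoietin, condense their nuclei and expel them, and Rb1 is known to be needed for this terminal step.

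Values are MAS5 signals, the linear brightness of a probe set on the array, for the brightest probe set of each gene. Changes are differences of log2(signal + 32), which understates changes of dim genes. A gene is called where limma's two-sided adjusted p, over all 12723 genes tested, was under 0.05. The fit took the spread of each gene from all 34 arrays of the series, other genotypes included. The median signal of an array ran from 83.0 to 113.0 in the Rb1;p130 DKO group and from 80.6 to 112.5 in the p130 KO group. Of the Rb1;p130 DKO arrays 5 of 9 expressed Xist, the RNA of the inactive X chromosome, against 3 of 3 p130 KO arrays. The labels recorded no batch, but the ratio of 2 probe sets of the same gene split the arrays into 3 groups, here called array groups. Array group 1 held 5 Rb1;p130 DKO and 2 p130 KO arrays, and array group 3 held 4 and 1. Rb1;p130 DKO array 9 correlated least with the other arrays, at a median r of 0.951, and Rb1;p130 DKO arrays 6 and 8 and p130 KO array 3 stood at 0.959. Marker genes of liver were bright in both groups: the median signal of Alb (albumin) was 36476 in Rb1;p130 DKO and 34567 in p130 KO arrays, and that of Alas2, the erythroid enzyme of heme synthesis, was 24058 and 22347.

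The targeted gene followed the labels. Rb1 signal ran from 756.0 to 1745.9 in Rb1;p130 DKO arrays, with a median of 1390.6, against 6101.4, 5810.5 and 8204.0 in the p130 KO arrays. Every Rb1;p130 DKO array lay below every p130 KO array. The fall was 4.82-fold, a log2 change of -2.27 ± 0.20 (SE, n = 9 and 3; limma adjusted p = 8.02e-09), and whether the remaining signal came from outside the deleted stretch was not tested. The second Rb1 probe set was dim on all 12 arrays. Rbl1, the gene of p107, which both groups carried, ran from 1305.7 to 2713.2 (median 2413.6) against 1255.8, 1345.3 and 2003.8. The groups overlapped, and the log2 change was 0.41 ± 0.23 (adjusted p = 0.958). Rbl2, absent by label in both groups, ran from 151.0 to 264.0 against 221.1, 235.5 and 129.6, so that it did not separate the groups.

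Few genes were called for the loss of Rb1, which does not show that few genes changed. Of the 12723 genes 15 were called (0.118%), Rb1 included, with 9 higher (0.0707%) and 6 lower (0.0472%) in Rb1;p130 DKO livers. At an unadjusted p under 0.05 there were 674 genes (5.3%). The median log2 change of all genes was -0.007, with 48.2% of them above 0. Of all tested genes 34 had a change of at least 2-fold, and only 6 of these were among the 15 called. Of the 15 called genes 13 had no overlap between the 2 groups of arrays. No overlap was seen for 0.574% of all genes in the higher direction and 0.409% in the lower. The split of 9 higher and 6 lower depended on scaling: quantile normalization called 19 higher and 7 lower, and median scaling 2 higher and 4 lower.

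**Figure D1:**
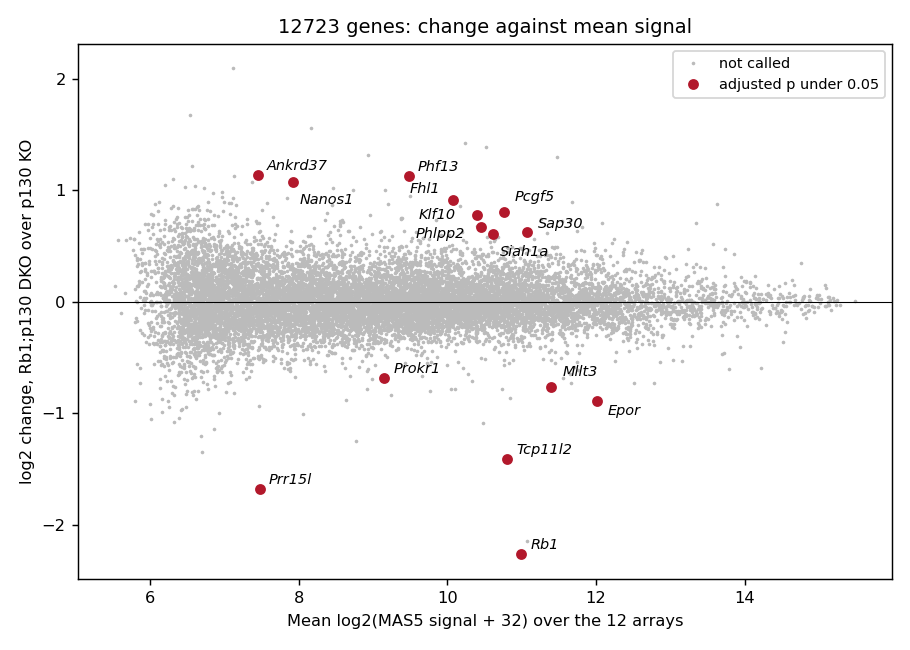
Log2 change of every tested gene in Rb1;p130 DKO against p130 KO livers (vertical axis, log2 of signal + 32) by its mean log2 signal over the 12 arrays (horizontal axis), with the 15 called genes in red and named. Most genes lie close to 0, and Rb1, at -2.27, has the largest fall among the called genes.

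Genes of chromatin repression were among the called rises. Phf13, a PHD-finger protein that reads methylated histone H3, had signals from 673.5 to 977.8 (median 874.0) in Rb1;p130 DKO arrays, against 319.3, 392.2 and 392.3 in p130 KO arrays. All 9 mutant arrays lay above all 3 p130 KO arrays. The rise was 2.18-fold, a log2 change of 1.12 ± 0.13 (adjusted p = 4.82e-06), and after Rb1 it had the smallest adjusted p. Pcgf5, a subunit of a non-canonical Polycomb repressive complex 1, ran from 1468.4 to 2473.9 (median 2153.7) against 1254.1, 1040.6 and 1042.4. Its groups did not overlap, and the rise was 1.75-fold (log2 change 0.81 ± 0.16, adjusted p = 0.0210). Sap30, a subunit of the Sin3 histone deacetylase complex, ran from 1944.2 to 3032.7 (median 2409.9) against 1598.4, 1195.0 and 1852.4. Again no arrays overlapped (log2 change 0.63 ± 0.13, adjusted p = 0.0284). These 3 were the called members of a list of 20 tested chromatin repressors, whose median log2 change was 0.09. That list was written with these calls known. A further 2 members were not called. Sin3a, the scaffold of the Sap30 complex, had a log2 change of 0.39 ± 0.12 (adjusted p = 0.436). Kmt5a, a histone H4 methyltransferase, had 0.46 ± 0.14 (adjusted p = 0.443). With array group as a block Kmt5a was called, but with the mean of its probe sets its log2 change reversed in sign.

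The promoter of Phf13 is shown because Phf13 was the most firmly called of the rises. Its window runs from 250 bases before to 50 bases after the RefSeq start, at chr4:151996130-151996429 on the minus strand of GRCm38.p6, 5′ to 3′. Capitals would mark matches to the E2F words TTTCCCGC, TTTCGCGC, TTTGCCGC and TTTGGCGC, the hypoxia core ACGTG and the GATA word AGATAA on either strand, and this window holds none of these letters.
Phf13: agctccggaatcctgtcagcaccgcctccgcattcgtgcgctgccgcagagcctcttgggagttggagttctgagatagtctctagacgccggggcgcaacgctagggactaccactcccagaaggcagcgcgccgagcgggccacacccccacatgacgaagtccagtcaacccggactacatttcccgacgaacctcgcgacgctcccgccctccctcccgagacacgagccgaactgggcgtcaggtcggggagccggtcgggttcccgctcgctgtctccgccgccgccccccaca
The E2F words were found in 3.9% of the promoters of the tested genes and in 0 of the 11 promoters of called higher genes. These 11 promoters belonged to 8 genes, and at so low a share a count of 0 does not set them apart. A match is only a description, and its absence here covers these words in this window.

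The other 6 called rises were Klf10, Phlpp2, Siah1a, Fhl1, Nanos1 and Ankrd37. Klf10, a zinc-finger repressor induced by TGF-beta, ran from 1144.4 to 1650.3 (median 1542.2) in Rb1;p130 DKO arrays, against 942.1, 902.2 and 765.5 in p130 KO arrays. The groups did not overlap, and the log2 change was 0.77 ± 0.16 (adjusted p = 0.0238). Phlpp2, a phosphatase that acts on AKT, ran from 1378.2 to 1763.8 (median 1557.7) against 926.6, 962.9 and 989.5. All mutant arrays were higher than all p130 KO arrays, with a log2 change of 0.67 ± 0.13 (adjusted p = 0.0193). Siah1a, an E3 ubiquitin ligase, ran from 1517.7 to 2094.5 (median 1683.8) against 1290.6, 1097.6 and 962.3. It too had no overlap (log2 change 0.61 ± 0.12, adjusted p = 0.0255).

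Fhl1, a LIM-domain protein, had signals from 872.4 to 1528.6 (median 1253.0) in Rb1;p130 DKO arrays and of 589.1, 608.9 and 724.1 in p130 KO arrays. Its log2 change was 0.91 ± 0.17 (adjusted p = 0.0202), with no overlap. Nanos1, an RNA-binding repressor of translation, ran from 194.3 to 381.4 (median 266.2) against 72.4, 113.0 and 145.1. It rose 2.10-fold, a log2 change of 1.07 ± 0.21 (adjusted p = 0.0210), again without overlap. Ankrd37, an ankyrin-repeat protein induced by hypoxia, ran from 112.8 to 290.8 (median 185.5) against 137.2, 68.1 and 21.5. p130 KO array 1 lay inside the mutant range, and the 3 p130 KO arrays differed from each other more than in the genes above. The log2 change of Ankrd37 was 1.14 ± 0.23 (adjusted p = 0.0227). Without p130 KO array 3, the lowest, its log2 change was 0.71 and it was no longer called (adjusted p = 0.566).

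The promoter of Ankrd37 is shown for its 2 matches to the hypoxia core ACGTG, a short sequence that hypoxia-inducible factors bind, which stand in capitals. They start 241 and 6 bases before the start site on the printed strand, at chr8:45999801-46000100 on the minus strand of GRCm38.p6.
Ankrd37: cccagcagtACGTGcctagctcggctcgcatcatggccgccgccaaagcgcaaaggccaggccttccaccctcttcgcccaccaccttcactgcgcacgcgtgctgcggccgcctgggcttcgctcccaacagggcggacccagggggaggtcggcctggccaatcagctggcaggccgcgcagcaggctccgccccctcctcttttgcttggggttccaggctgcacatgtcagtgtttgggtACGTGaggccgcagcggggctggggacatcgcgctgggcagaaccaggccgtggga
The core was present in 24.7% of the promoters of all tested genes, so a match is common. Among the 20 tested hypoxia-response genes Ankrd37 alone was called, and the median log2 change of the list was 0.21.

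Of the 6 called falls, Rb1 aside, 5 genes were lower in Rb1;p130 DKO livers. Prr15l ran from 43.5 to 143.6 (median 107.5) against 345.5, 454.6 and 391.7, a fall of 3.21-fold with no overlap (log2 change -1.68 ± 0.25, adjusted p = 0.000487). Tcp11l2 ran from 1118.8 to 1884.4 (median 1300.4) against 3091.7, 3309.0 and 4916.2, a fall of 2.67-fold with no overlap (log2 change -1.41 ± 0.24, adjusted p = 0.00521). For both genes every mutant array lay below every p130 KO array. Epor, the receptor for erythropoietin, on which erythroid precursors depend, ran from 2445.5 to 4586.2 (median 3489.4) against 5322.9, 8058.1 and 6445.7. The groups did not overlap, and Epor fell 1.85-fold (log2 change -0.89 ± 0.18, adjusted p = 0.0227). Mllt3, a partner of the histone methyltransferase DOT1L that is known to support blood stem cells, ran from 1820.8 to 3360.1 (median 2381.4) against 4006.6, 3299.7 and 4779.7. Rb1;p130 DKO array 7 overlapped with p130 KO array 2, and the log2 change was -0.76 ± 0.15 (adjusted p = 0.0210). Prokr1, a receptor for prokineticins, ran from 358.8 to 616.7 (median 460.6) against 869.2, 790.9 and 702.1, with no overlap (log2 change -0.69 ± 0.15, adjusted p = 0.0412).

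In bulk liver a lower signal of a gene such as Epor cannot be told apart from a smaller share of the cells that express it. The promoter of Epor is shown for a match to the GATA word, which blood GATA factors bind, on the opposite strand, where it reads TTATCT in the printed strand and starts 54 bases before the start site. It lies at chr9:21963527-21963826 on the minus strand of GRCm38.p6.
Epor: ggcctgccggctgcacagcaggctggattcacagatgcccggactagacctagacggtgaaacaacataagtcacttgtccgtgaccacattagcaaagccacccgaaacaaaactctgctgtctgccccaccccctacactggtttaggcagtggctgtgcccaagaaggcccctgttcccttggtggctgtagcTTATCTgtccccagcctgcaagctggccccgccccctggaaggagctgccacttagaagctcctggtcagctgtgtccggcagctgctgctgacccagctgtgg
The GATA word was present in 6.8% of the promoters of tested genes and in 1 of the 5 promoters of called lower genes, which was that of Epor.

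**Figure D2:**
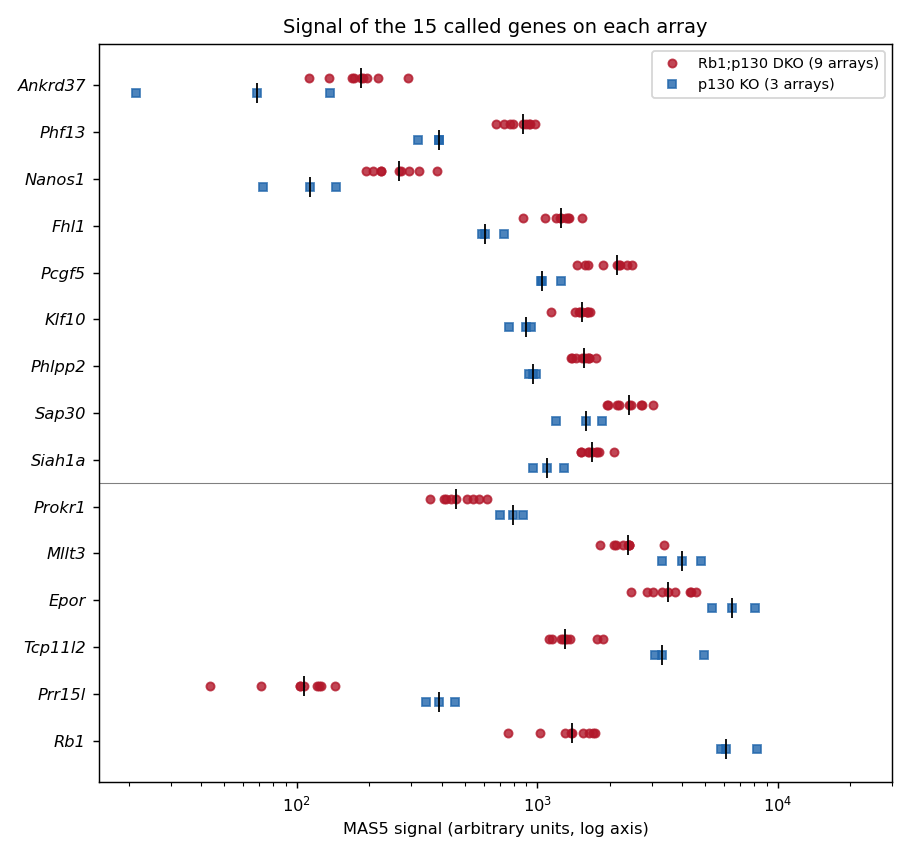
MAS5 signal on a log axis of the 15 called genes on every array, with the 9 Rb1;p130 DKO arrays (red circles) drawn above the 3 p130 KO arrays (blue squares) in each gene's row and a black bar at each group's median. The arrays of the 2 groups do not overlap for 13 of the 15 genes, and Ankrd37 and Mllt3 are the exceptions.

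Where a called gene had further probe sets, these did not always separate the groups. A second Mllt3 probe set ran from 881.0 to 1113.5 (median 1033.4) in Rb1;p130 DKO arrays, against 1559.8, 1481.2 and 1669.0, with no overlap and a log2 difference of -0.63. Another Mllt3 probe set, similarly bright, ran from 790.3 to 1278.8 (median 968.9) against 968.1, 1314.9 and 1081.8, and it overlapped, with a log2 difference of -0.20. These 2 Mllt3 probe sets disagreed on whether the groups separate. A second Prokr1 probe set, much dimmer, ran from 3.9 to 27.9 against 107.6, 152.3 and 43.7. The second probe sets of Nanos1 (log2 difference 1.12) and Pcgf5 (0.62) overlapped between the groups. Those of Siah1a gave 0.32 and 0.06 and also overlapped. Dim further probe sets of Fhl1 (-0.42, against the sign of its call), Phlpp2 (0.12) and Pcgf5 (0.31) overlapped as well.

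Most calls were lost without 1 or another p130 KO array. Klf10, Pcgf5, Phlpp2 and Prokr1 lost theirs whichever of the 3 was left out. Leaving out 1 array gave log2 changes of 0.65 to 0.69 for Phlpp2, but of 0.71 to 1.54 for Ankrd37. Of 31 alternative settings, Rb1, Phf13 and Prr15l remained called in every one that gave them a value, and no called gene changed sign in any. For the 13 genes without overlap the lack of overlap largely fixed the sign. Leaving out some p130 KO array ended 12 of the 15 calls, and leaving out a single Rb1;p130 DKO array ended 3 (Prokr1, Sap30 and Siah1a). Leaving out p130 KO array 1 gave 7 calls, leaving out array 2 also 7, and leaving out array 3 gave 9. Tcp11l2 lost its call without p130 KO array 3 (adjusted p = 0.120). With only the 12 arrays compared in the fit, 5 genes were called: Rb1, Phf13, Prr15l, Tcp11l2 and Fhl1 (adjusted p = 0.0498). The other calls were lost there, with adjusted p from 0.0518 for Klf10 to 0.491 for Sap30. Those calls thus rested on the spread taken from the other genotypes. Without Rb1;p130 DKO arrays 8 and 9 there were 15 calls, 11 of them shared with the fit on all arrays, and Klf10, Prokr1, Sap30 and Siah1a were not called. Without Rb1;p130 DKO array 6 there were 16 calls, 14 of them shared.

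Within an array group or among Xist arrays, the sign of the 13 called genes without overlap was fixed in advance. That of Mllt3 was fixed too, because its overlapping arrays, Rb1;p130 DKO array 7 and p130 KO array 2, shared none of these splits. Only Ankrd37 could turn, in array group 1 and among Xist arrays. In array group 3 its sign was fixed, as the p130 KO array there lay below every Rb1;p130 DKO array. Ankrd37 differed by 0.81 in array group 1, 1.87 in array group 3 (1 p130 KO array) and 1.07 among Xist arrays, on the log2 scale. Mllt3 differed by -0.65 in array group 1 and by -0.85 among Xist arrays, and it was also lower in array group 3. Ankrd37 did not turn its sign where it could, and the part of array group and Xist in the other changes was not tested by these signs. With only Xist arrays the fit called 5 genes, which were Rb1, Phf13, Prr15l, Tcp11l2 and Mllt3. With array group as a block, 51 genes were called (0.401%), among them all 15. Kmt5a was among them as well (log2 change 0.49 ± 0.11, adjusted p = 0.0400). The 36 further genes were 29 higher and 7 lower, and 13 of the 36 were also called in the Rb1;p107;p130 TKO comparison below.

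**Figure D3:**
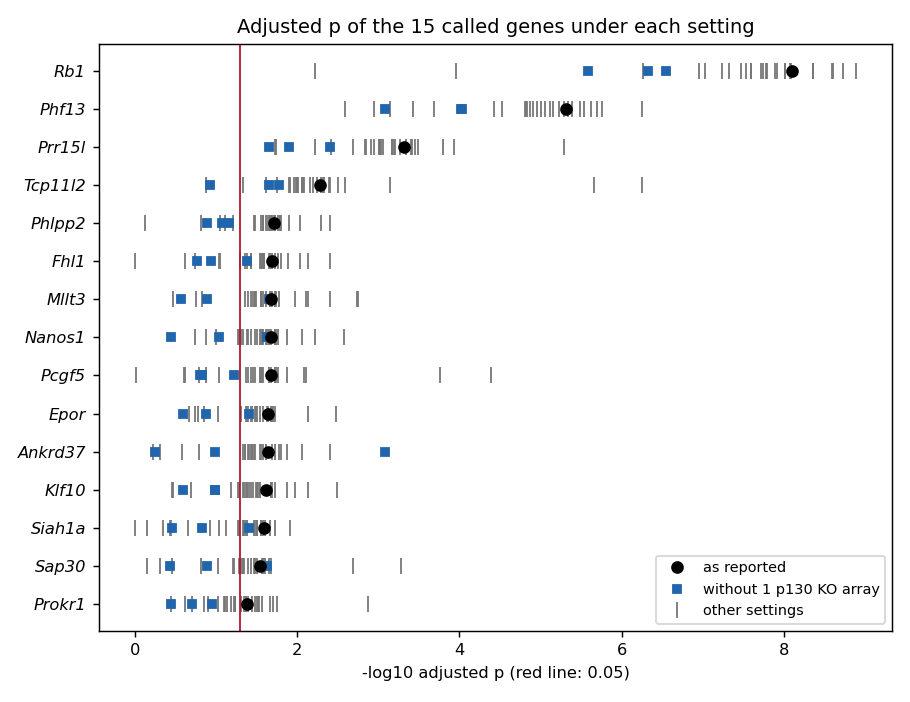
Adjusted p of each of the 15 called genes (rows) on a -log10 axis, as reported (black circle), without 1 p130 KO array (blue squares) and under the other settings (grey bars), with a red line at 0.05. The points of Rb1, Phf13 and Prr15l all lie right of the line, and each other gene has points on its left.

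Several uncalled genes separated the groups completely. Among genes whose log2 signal averaged 8 or more over the 12 arrays, 55 uncalled genes lay higher and 31 lower with no overlap. No overlap was seen for 0.724% and 0.409% of the 8566 such genes, in that order. How many genes would separate by chance with so few p130 KO arrays was not tested. A lack of overlap alone is therefore no evidence of a change. Cdkn1a, which encodes the cyclin-dependent kinase inhibitor p21, ran from 361.3 to 660.2 (median 461.6) in Rb1;p130 DKO arrays, against 174.0, 284.2 and 215.0, with a log2 change of 1.00 ± 0.22 (adjusted p = 0.0579). Cdkn2c, which encodes the kinase inhibitor p18, ran from 3035.6 to 5023.1 (median 3610.1) against 2286.3, 2418.0 and 2600.0 (log2 change 0.63 ± 0.15, adjusted p = 0.114). Both lay above every p130 KO array on all 9 mutant arrays. Nudt4, a hydrolase of diphosphoinositol polyphosphates, ran from 11829.7 to 19034.3 against 7150.1, 6201.4 and 11527.4 (adjusted p = 0.0794). On the lower side, Bpgm, the red cell enzyme that makes bisphosphoglycerate, ran from 3830.1 to 5931.9 (median 5402.6) against 7594.3, 7727.3 and 10438.1, with a log2 change of -0.73 ± 0.17 (adjusted p = 0.0737). Xpo7, a nuclear exporter abundant in maturing erythroblasts, ran from 11125.7 to 15097.2 against 16843.2, 16997.2 and 25361.6 (log2 change -0.61 ± 0.18, adjusted p = 0.326). Ube2h, a ubiquitin-conjugating enzyme of late erythroblasts, had a log2 change of -0.65 ± 0.20 (adjusted p = 0.369). With array group as a block the called genes included Cdkn1a (log2 change 0.99, adjusted p = 0.0241), Cdkn2c (0.62, 0.00475), Nudt4 (0.86, 0.00475), Bpgm (-0.73, 0.0139) and Xpo7 (-0.62, 0.00475). Fos, an immediate-early transcription factor, was called there too, with a log2 change of 1.07 (adjusted p = 0.00579).

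No gene of the cell cycle lists other than Rb1 was called. Of 38 tested S-phase and E2F target genes none was called, and their median log2 change was 0.07, with 25 above 0. E2f1 itself ran from 1250.3 to 2009.9 (median 1714.7) in Rb1;p130 DKO arrays against 1207.5, 1130.8 and 1262.8 (log2 change 0.44 ± 0.14, adjusted p = 0.479). Its groups overlapped by a small margin. Of 29 tested G2/M genes none was called, and the median was 0.17 with 26 above 0, where all genes had a median of -0.007 and 48.2% above 0. Kif11, the spindle motor, had a log2 change of 0.44 ± 0.15 and no overlap (adjusted p = 0.656), and Cdk1, the mitotic kinase, 0.24 ± 0.09 (adjusted p = 0.683). The 5 tested CDK inhibitors all lay above 0, with a median of 0.31, and Cdkn1a and Cdkn2c, described above, had no overlap. Of 19 tested pocket protein, E2F partner and MuvB genes, 1 was called, and it was Rb1 itself.

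Among stress and death genes, Klf10 was the called one. Of 16 tested immediate-early genes it was the 1 called, and the median log2 change was 0.41 with 14 above 0. Leaving out 1 array gave medians of 0.14 to 0.44 for this list. Dusp1, the phosphatase that ends MAP kinase signals, had a log2 change of 0.46 ± 0.13 (adjusted p = 0.287). The heat shock genes Hspa1b (1.39 ± 0.69) and Hspa1a (1.32 ± 0.46) had wide errors and were not called, and the median of the 12 heat shock genes tested was 0.08. Of 17 p53 targets none was called (median 0.12), of 12 BCL2 family genes none (median 0.00), and Bbc3, a death-promoting member, had 1.00 ± 0.37 (adjusted p = 0.756). Of 10 interferon-response genes none was called, with Rsad2 at -1.09 ± 0.45 (adjusted p = 0.859). Glycolysis (median 0.10, 15 genes), autophagy and mitophagy (0.01, 18 genes) and mitochondrial respiration (-0.09, 23 genes, 20 below 0) had no called member.

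Of the erythroid lists, that of erythropoietin receptor signalling alone had a called gene. Of its 14 tested genes only Epor was called, and the median log2 change was -0.04. Jak2, the kinase bound to the receptor, had a log2 change of 0.26 ± 0.19 (adjusted p = 0.9998), and Socs2, a target of the pathway, 0.42 ± 0.22 (adjusted p = 0.958). None of 18 erythroid transcription factors was called (median -0.06), nor of 15 heme synthesis genes (median -0.07, with 13 below 0), 10 iron genes (-0.13), 17 red cell membrane and skeleton genes (-0.04) or 21 late red cell genes (0.02). Of these late red cell genes 1 lay higher without overlap (Nudt4) and 3 lower (Bpgm, Xpo7 and Ube2h), where 0.574% and 0.409% of all genes did. The list was written with earlier results of these data known, so these counts are not evidence about it. The 4 globin genes tested had a median of -0.34, the lowest of the 32 lists. Hbb-bh1, an embryonic beta-type globin, had -0.55 ± 0.23 (adjusted p = 0.868), while Hbb-y, also an embryonic beta-type globin, had 0.01 ± 0.14. Hba-x had -0.47 ± 0.30 and Hbb-b2 -0.22 ± 0.31. Tfr2, a transferrin receptor in the iron list, had -0.59 ± 0.21 (adjusted p = 0.656), and with array group as a block it was called (-0.65 ± 0.13, adjusted p = 0.00940). Which liver cells gave its signal was not tested. In the TKO comparison below, the log2 change of Tfr2 was 0.02 (adjusted p = 0.998).

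Among markers of other liver cell types Mllt3 was the called gene. No hepatocyte (21 genes, median -0.08), macrophage (18, -0.08), neutrophil (12, -0.25), megakaryocyte (12, -0.11), endothelial (15, 0.04), lymphoid (5, 0.15) or mast cell gene (6, 0.08) was called. All 12 neutrophil genes lay below 0, and their summed signal ran from 45028 to 114720 (median 70062) in Rb1;p130 DKO arrays, against 63135, 78272 and 116417. The stellate and mesenchymal list had a median of 0.32 with no call in 19 genes, and its summed signal ran from 22145 to 55898 (median 29963) against 22123, 25514 and 39033. The ranges of both sums overlapped, and both medians turned on 1 array: the neutrophil median was 0.07 without p130 KO array 2, and the stellate median was -0.04 without p130 KO array 1. Of 15 stem and progenitor genes 1 was called, Mllt3, and the list's median was 0.02. Over all 32 lists, which held 490 tested genes, 9 genes were called, where 0.118% of all genes were, and 25 lists had no called member. The lists were written with these calls known, so this share is not evidence about them.

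**Figure D4:**
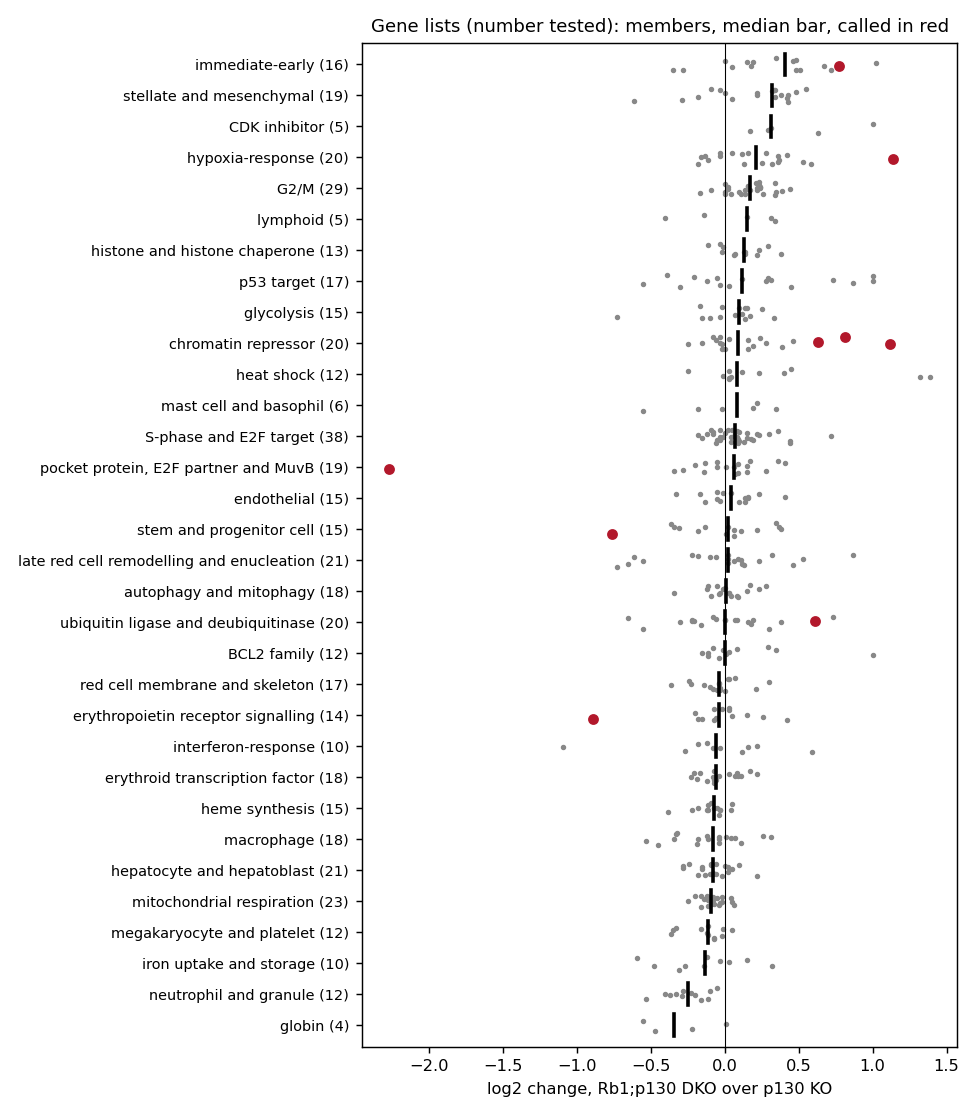
Log2 change in Rb1;p130 DKO against p130 KO livers (horizontal axis) of each tested member of the 32 gene lists (rows, with the number tested), with called genes in red and a black bar at each list's median. List medians run from -0.34 for the globins to 0.41 for the immediate-early genes.

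The same loss of Rb1 was also measured where p107 was absent as well, by Rb1;p107;p130 TKO (6 arrays) against p107;p130 DKO (6 arrays). These arrays are not shared with the comparison above, although the fit pools the spread. There 48 of 12723 genes were called (0.377%), with 38 higher (0.299%) and 10 lower (0.0786%), and 766 (6.02%) had an unadjusted p under 0.05. Of the 47 called besides Rb1, all 47 had the same sign in Rb1;p130 DKO against p130 KO livers, where 62.0% of all genes did. Of these 47, 40 had an unadjusted p under 0.05 here and 11 were called (23.4%). Conversely, of the 14 genes called here besides Rb1, 11 were called there (78.6%) and all 14 had the same sign. Phf13 had a log2 change of 1.08 there (adjusted p = 4.02e-07), Prr15l -1.48, Tcp11l2 -1.34 and Epor -0.92. Ankrd37 (0.49, adjusted p = 0.628), Nanos1 (0.43, adjusted p = 0.702) and Prokr1 (-0.50, adjusted p = 0.0763) were the 3 that were not called there. The share of Xist arrays ran the other way in that comparison, with 4 of 6 TKO arrays against 1 of 6 p107;p130 DKO arrays.

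A direct test of the difference between the 2 Rb1 effects found no gene. In limma's interaction contrast 0 of 12723 genes were called (0.0%), and 209 (1.64%) had an unadjusted p under 0.05. Among the 14 called genes 2 had an unadjusted p under 0.05, Nanos1 (0.0266) and Ankrd37 (0.0386), and the lowest adjusted p was 0.9995. A p that misses the threshold does not show that the effects were equal. Cdkn1a, Fos and Zfp367, a zinc-finger gene, were called in the TKO comparison with log2 changes of 1.28, 1.19 and 1.17, while here they had 1.00 ± 0.22, 1.02 ± 0.24 (adjusted p = 0.0794) and 0.90 ± 0.20 (adjusted p = 0.0691). Rb1 KO against wild type, with 2 arrays each, called 1 gene (0.00786%), which was Rb1, and 438 genes (3.44%) had an unadjusted p under 0.05. All 14 other genes called here had the same sign in it, where 56.9% of all genes did.

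**Figure D5:**
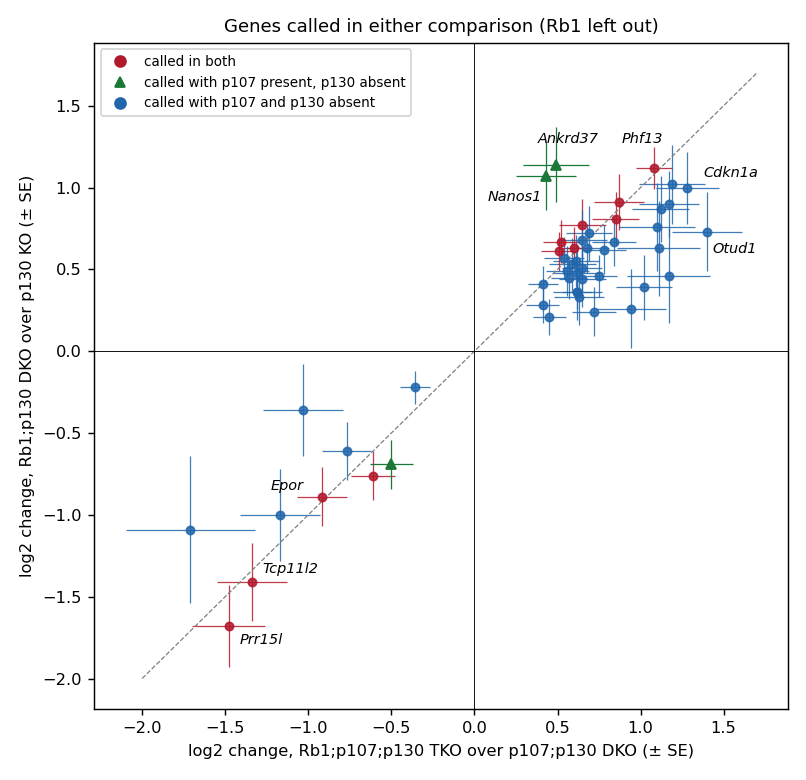
Log2 change in Rb1;p130 DKO against p130 KO livers (vertical axis) by that in Rb1;p107;p130 TKO against p107;p130 DKO livers (horizontal axis), for genes called in both (red), here alone (green triangles) or in the TKO comparison alone (blue), with bars of 1 SE and a dashed line where both changes are equal. All 14 genes called here besides Rb1 have the same sign in both.

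Across all 8 genotypes the levels of Phf13 fell into separate ranges by the presence of Rb1. Its median signal was 874.0 in Rb1;p130 DKO, 813.1 in TKO, 754.7 in Rb1 KO and 726.2 in Rb1;p107 DKO arrays, against 392.2 in p130 KO, 370.2 in p107;p130 DKO, 367.0 in wild type and 421.8 in p107 KO arrays. The lowest array without Rb1 stood at 542.2 and the highest array with Rb1 at 445.0. Tcp11l2 was at 1300.4, 1076.4, 1256.7 and 1440.6 in the 4 genotypes without Rb1, in that order, against 3309.0, 2753.0, 3942.2 and 3032.7 in the 4 with it, and its highest array without Rb1 (1884.4) lay below its lowest with Rb1 (2031.0). Epor had medians of 3489.4, 2484.0, 4278.3 and 2347.1 without Rb1, against 6445.7, 5284.7, 5844.5 and 4032.8 with it, and single arrays overlapped (up to 4645.8 without Rb1, down to 3855.2 with it). Prr15l did not separate in this way: its medians were 107.5, 51.1, 64.6 and 60.1 without Rb1, against 391.7, 187.9, 291.1 and 73.7 with it. The p107 KO array (73.7) and the lowest p107;p130 DKO array (127.4) lay inside the Rb1;p130 DKO range of 43.5 to 143.6. Only 1 or 2 arrays stood behind p107 KO, Rb1 KO and wild type.

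The genes next to Rb1 on chromosome 14 were checked as well. None of the 30 nearest tested genes in RefSeq order was called, their median log2 change was -0.01, and 2 had an unadjusted p under 0.05. One was Xpo7, described above, which lies 5 tested genes away from Rb1 and had the lowest adjusted p of the 30, 0.326. With array group as a block Xpo7 was called. In the TKO comparison it was called too, with a log2 change of -0.77 (adjusted p = 0.0106). In Rb1 KO against wild type its log2 change was -0.85. Whether its place near Rb1 has a part in its fall was not tested.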

How the data were processed

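RNA of whole fetal liver was hybridised to 34 one-colour arrays of 45037 probe sets, in 8 genotypes grouped by their titles. The deposited values are in intensity units on a linear scale (MAS5 signals), which the authors made with MAS5 in GCOS 1.4, per the submitters' processing notes. The deposited arrays had 2% trimmed means of 495.4 to 497.7 and were rescaled here to 500. No detection calls were used, and the number of arrays limits the precision. Symbols came from the platform annotation, with 34945 probe sets on 1 symbol, 932 on several and 9160 on none. Each of 18193 genes was given by its brightest probe set, and 12723 entered the tests because 2 or more arrays reached a signal of 100.

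A linear model of log2(signal + 32) with 1 mean per genotype over all 34 arrays was fitted with limma 3.58.1 (R 4.3.3; eBayes with trend, two-sided, Benjamini-Hochberg) and tested on simulated data. Array groups came from k-means with 3 groups on the log2 difference of the 2 brightest probe sets of 2996 genes, and are inferred, not recorded. An Xist array has Xist above Eif2s3y, used because no probe set was annotated with Ddx3y. Promoter windows, names and gene order came from RefSeq (GRCm38.p6), and 12 called genes had a promoter entry. Klf10, Prr15l and Rb1 had no entry.

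The genes and the 32 gene lists were chosen with earlier results of these data known. Named were the called genes, the uncalled genes of mean log2 signal at least 8 without overlap (10 largest each way), of each list the called members and up to 3 more by test statistic, the 8 largest called only with array group as a block, the 10 largest called in the TKO comparison, and the targeted genes; other probe sets and called neighbours of Rb1 completed the rule, and defining markers were given as medians. The 31 alternatives changed the pseudocount, filter, scaling, probe set rule, variance model, arrays and covariates. No pairing by replicate number entered the main fit, and whether the numbers pair the arrays was not settled.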

Additional observations from a re-analysis of the deposited data

Results flagged for a closer look

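In the Rb1;p130 DKO group of 9 arrays, 8 of the 127 named genes had 1 array set apart from the other 8. The gap was more than Dixon's 95% limit for 9 values, which chance would give for about 1 group in 20. The count of 8 genes was near that rate. Klf10 was lowest on array 6, at 1144.4, where the other arrays lay between 1440.7 and 1650.3. Mllt3 was highest on array 7, at 3360.1, where the others lay between 1820.8 and 2417.7, and this was the array that overlapped with the p130 KO group. Ireb2, a regulator of iron metabolism, was also highest on array 7, at 1767.5, against 784.5 to 1147.0 on the others.

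Of the 8 genes 3 were lowest on array 9, the array with the lowest correlation to the rest. These were Polr3gl at 106.0 (others 317.9 to 448.3), Cdkn2d at 5046.4 (8495.4 to 11512.3) and Jak2 at 1060.6 (2174.9 to 2831.6). On array 8, the heme transporter Abcb6 was highest at 5452.2 (3715.4 to 4272.1), as was the respiratory chain subunit Ndufa9 at 11160.1 (7349.2 to 8175.7). The cause of these values was not tested.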

How the results depend on the processing

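The 15 calls of Rb1;p130 DKO against p130 KO lay within 1.5 times in 19 of 31 settings. Among the others, quantile normalization gave 26 calls (19 higher, 7 lower), median scaling 6 (2 higher, 4 lower), the second brightest probe set 7, array weights 29, only the 12 arrays compared 5 and only Xist arrays 5. Array group as a block gave 51, and 2 settings chosen after seeing the data gave 37 (array group and Xist class together) and 9 (without Rb1;p130 DKO arrays 8 and 9 and p130 KO array 3). Leaving out 1 array at a time gave 7 to 17 calls. Only genes with a second probe set could be tested in that setting, and the cause of the other counts was not tested. With the replicate number as a block there were 21 calls (12 higher, 9 lower). Arrays of the same number deviated together with r of 0.067, 0.373 and -0.28. Arrays of different numbers were not compared, so whether the numbers pair the arrays was not settled.

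No called gene reversed, as the lack of overlap largely fixed for 13 of the 15. Of the uncalled named genes 17 reversed in at least 1 setting. With the second brightest probe set the log2 change was -0.08 for Fundc1, -0.27 for Socs2, 0.05 for Klf3, -0.01 for Gata2, -0.15 for Sptb and -0.03 for Rbl2. With array weights it was -0.01 for Pfkp, 0.06 for Hbb-b2 and 0.12 for Ms4a3. With the replicate block it was -0.04 for Ldha and 0.02 for Hbb-b2, and with the mean of probe sets -0.04 for Kmt5a. Without Rb1;p130 DKO arrays 8 and 9 Hbb-b2 was at 0.03, and without these and p130 KO array 3 Atg12 was at -0.06, Lmo2 at 0.00, Bst2 at -0.28 and Rbl2 at -0.08. Leaving out 1 array gave -0.74 to 0.04 for Pink1, -0.08 to 0.39 for Atg12, -0.26 to 0.01 for Lmo2, -0.70 to 0.01 for Ms4a3, -0.07 to 0.80 for Hoxa9, -0.07 to 0.57 for Igll1, -0.32 to 1.15 for Bst2 and -0.14 to 0.22 for Rbl2. Among list medians over all settings, 27 moved by more than the spread and 963 did not. Only 3 p130 KO arrays and a log scale that compresses low signals limit what dim genes can show.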
